A study of Mus musculus with 12 samples.

Results

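The genes described here encode the proteins of the cytosolic ribosome. They were chosen by symbol, as every gene whose name has the form Rpl or Rps with a number (pseudogenes marked -ps left out), together with Rpsa, Rplp0, Rplp1, Rplp2 and Fau. The rule found 78 genes among 17365 in the count table, 32 for the small (40S) subunit and 46 for the large (60S) subunit. All 78 were abundant enough to be tested, with 146 to 29295 estimated counts in a library. Rack1 of the small subunit fell outside the rule by name and is given beside it.

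RNA-seq was carried out on adherent neural stem cell (NSC) cultures from the subventricular zone of young adult mice aged 6 to 8 weeks. There were 12 libraries of 3 conditions, each lasting 3 days: EGF and FGF2 (EGF/FGF, proliferating), BMP4 alone (BMP, the dormant d-qNSCs) and BMP4 with FGF2 (BMP/FGF, the primed p-qNSCs). Every factor was used at 10 ng/ml, and EGF was absent from both BMP conditions. In each condition 2 libraries came from the ANS4 line (strain MF1) and 2 from the BL6 line (C57BL/6), so every condition is seen in cells of only these 2 lines. The labels call the pairs replicas without saying whether they were separate cultures. The study's supplement gives 2 biological replicates for the RNA-seq, without saying whether these are the pairs or the 2 lines. The p-values therefore measure the spread between these samples, which may be technical. The medium of all the cultures held N2, B27 and laminin. Library totals were 18069052 to 19451818 counts. Replicates of a line and condition differed by more than sampling noise, with a chi-square per degree of freedom between 2.12 and 12.2, highest for the BL6 BMP pair.

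All 11 NSC and radial glia markers were present, with a summed level in CPM (counts scaled to a common library total, with trimmed mean of M values, TMM, factors) of 7819 to 8475 with EGF/FGF, 10506 to 11702 with BMP and 13456 to 13907 with BMP/FGF. Vim and Slc1a3 hold most of this sum with BMP and with BMP/FGF, and Vim and Fabp7 hold most of it with EGF/FGF. The markers did not move as a block: mean CPM with EGF/FGF, BMP and BMP/FGF were 476, 693 and 672 for Sox2, but 569, 126 and 115 for Nes, 2409, 475 and 1385 for Fabp7 and 353, 191 and 243 for Egfr. The 6 proliferation markers (Mki67, Top2a, Mcm2, Pcna, Ccnb1 and Aurkb) summed to 2236 to 2685 CPM with EGF/FGF, 377 to 560 with BMP and 271 to 288 with BMP/FGF. The 6 neuronal markers were lowest with EGF/FGF, at 13.3 to 18.1 CPM, and summed to 302 to 611 CPM with BMP and 94 to 103 CPM with BMP/FGF. The 5 oligodendrocyte markers summed to 175 to 220, 627 to 668 and 692 to 714 CPM in the same order of conditions. The 2 ependymal markers in the table summed to 51.9 to 69.4, 173 to 207 and 176 to 185 CPM. Of the microglial markers 5 of 9 were in the table, of the endothelial 2 of 4 and of the fibroblast and pericyte 4 of 5, and these summed to at most 14.7, 4.26 and 2.98 CPM in any library. Sums of the NSC, proliferation, neuronal, oligodendrocyte, ependymal and microglial lists (the last at 9.56 to 14.7, 5.31 to 6.18 and 7.15 to 9.37 CPM) thus differed between EGF/FGF and both quiescent conditions without overlap, and their part in the results was not tested. In bulk RNA, fewer cells of a type and less RNA per cell cannot be told apart.

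A ribosome reads mRNA in its small subunit and joins amino acids in its large subunit, and most of the proteins are needed in equal numbers. Their mRNAs belong to the TOP class: transcription starts at a C that is followed by an unbroken run of pyrimidines, and through this run the LARP1 protein and the mTOR pathway adjust translation to growth. Growing, dividing cells make many ribosomes, and quiescent stem cells are known for low protein synthesis. A level of mRNA does not show how much of it is translated.

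The starts of several members are shown because the TOP run is the sequence feature for which the family is known. Each is a stretch of 30 bases on the sense strand, 10 before the annotated start and 20 from it, from the RefSeq annotation of GRCm38.p6, which lies in the promoter and the first bases of exon 1 (5′ untranslated region). Capitals mark a C at the start and the C or T bases that follow it without a break. The first 6 hold the run, and Rpsa, Rpl12 and Rpl22 do not hold it at the listed start shown.
Rps6: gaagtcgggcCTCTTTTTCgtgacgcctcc
Rps18: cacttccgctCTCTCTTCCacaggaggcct
Rpl35: ccgccctttcCTCTTTCTCTCgaaccaggc
Rpl15: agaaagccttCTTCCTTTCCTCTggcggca
Fau: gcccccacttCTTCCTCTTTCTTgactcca
Rpl38: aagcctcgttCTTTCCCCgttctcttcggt
Rpsa: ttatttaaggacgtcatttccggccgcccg
Rpl12: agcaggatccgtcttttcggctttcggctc
Rpl22: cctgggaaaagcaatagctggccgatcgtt
The stretches lie at chr4:86857348-86857377 (Rps6, minus strand), chr17:33955646-33955675 (Rps18, minus), chr2:39005112-39005141 (Rpl35, minus), chr14:18270967-18270996 (Rpl15, minus) and chr19:6057937-6057966 (Fau, plus). Those of Rpl38, Rpsa, Rpl12 and Rpl22 lie on the plus strand at chr11:114668570-114668599, chr9:120127756-120127785, chr2:32961702-32961731 and chr4:152325716-152325745.

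RefSeq windows of 250 bases before and 50 after the start were found for 58 of the 78 members, 68 windows in all, with more than 1 start for some genes. A C at the listed start with at least 4 further pyrimidines stood in 14 windows of 14 members, 20.6% of the members' windows and 2.51% of all 32851 windows. At least 8 pyrimidines in a row within 50 bases of the start were found in 80.9% of the members' windows and 35.7% of all windows. On both strands, the ETS-type motif CCGGAAGT was found in 16.2% against 3.89%, the YY1-type motif GCCATNTT in 23.5% against 6.05%, the GC box GGGCGG in 61.8% against 35.7% and TATAAA in 8.82% against 13.6%. Among windows of the genes tested the GC box stood at 62.2%, about the members' share, CCGGAAGT at 7.58%, GCCATNTT at 7.8% and TATAAA at 6.96%. A match describes letters in the window and no binding.

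The question of the first comparison is how far mRNAs of the ribosome differ between proliferating NSCs and the d-qNSCs. In BMP all 78 members were lower than in EGF/FGF, with a median log2 fold change of -1.19, a level 0.44 times that of EGF/FGF. Values ran from -1.79 for Rpl12 to -0.34 for Rpl22, and the middle of the set lay within a narrow band, with quartiles of -1.34 and -1.02 (median SE 0.08). The count is that of edgeR's quasi-likelihood test at a Benjamini-Hochberg adjusted p under 0.05 over 13312 genes. Of all genes tested 38.8% were called lower and 40.8% higher, with a median of 0.02. Libraries of the conditions did not overlap for 77 members, all lower in BMP, against 34.8% of all genes tested with non-overlapping libraries in that direction. The exception was Rpl29.

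As a share of the library, the summed counts of the 78 genes were 3.70 and 3.97% in the ANS4 EGF/FGF libraries and 3.68 and 3.59% in the BL6 ones. In BMP they were 1.59 and 1.62% in ANS4 and 1.66 and 1.59% in BL6. In BMP/FGF the shares were 1.86 and 1.77% in ANS4 and 1.77 and 1.82% in BL6. Means were 3.74% ± 0.164, 1.61% ± 0.0317 and 1.8% ± 0.0467 (SD, n = 4 libraries each), and no library of a condition overlapped with another condition. The large subunit genes held more counts than the small subunit genes throughout, and their ratio was 1.47 to 1.49 with EGF/FGF, 1.54 to 1.59 with BMP and 1.61 to 1.69 with BMP/FGF, without overlap. These shares and ratios are sums over the members and were given no test.

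**Figure D1:**
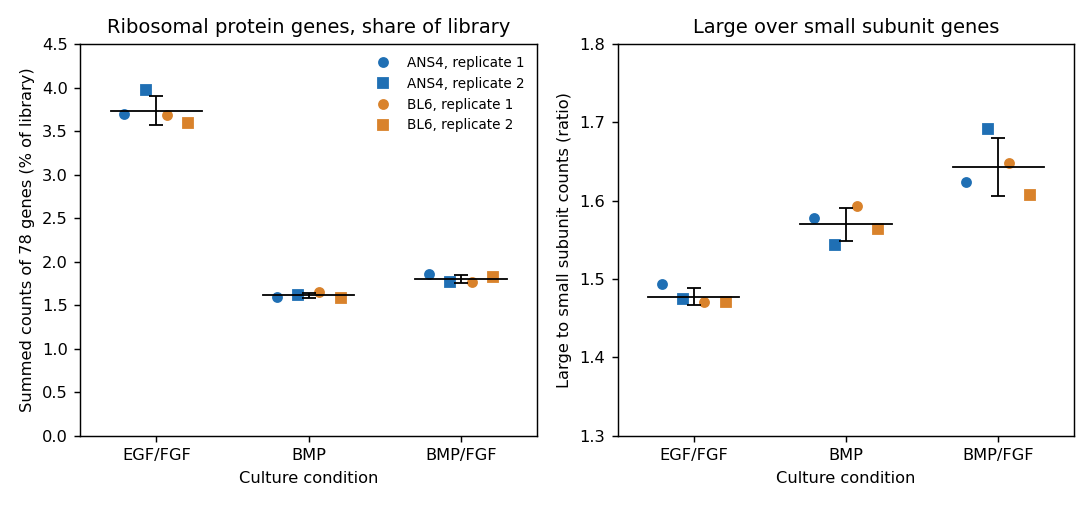
Summed counts of the 78 ribosomal protein genes as percent of the library (left, from 0) and the ratio of large to small subunit counts (right, axis from 1.3) in each of the 12 libraries, by condition, with colour for line and shape for replicate; lines and bars show mean and SD of 4 libraries. The 4 EGF/FGF libraries lie at 3.59% or above, every BMP library at 1.66% or below, and the ratio is highest in BMP/FGF.

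A further limit of the study, a log2 fold change beyond 1.5, was passed downwards by 11 members in BMP, 14.1% of the set against 6.95% of all genes tested. These were Rpl12, Rpsa, Rps18, Rpl36a, Rpl41, Rps25, Rps19, Rps12, Rpl36, Rpl13a and Rpl32. Rpl13a at -1.503 and Rpl32 at -1.502 lay at the limit itself, next to Rps2 at -1.490 and Rpl35 at -1.483 on the other side.

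Rpl12, a protein at the base of the stalk that recruits elongation factors (chr2:32961559-32965345, plus strand), had 396 and 423 CPM in ANS4 and 432 and 384 CPM in BL6 with EGF/FGF. In BMP it stood at 112 and 122 CPM in ANS4 and at 122 and 119 in BL6. The 4 BMP values lay close together and far below the lowest EGF/FGF value, with a log2 fold change of -1.79 (SE 0.06, adjusted p = 2.82e-14 by edgeR).

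Rpsa (chr9:120127689-120132369, plus strand) encodes a 40S protein also known as the laminin receptor precursor. Its EGF/FGF values were 1183 and 1269 CPM in ANS4 and 1173 and 1265 in BL6, among the highest of all members before correction for length. BMP gave 307 and 350 CPM in ANS4 and 335 and 435 in BL6, with the second BL6 library highest. The log2 fold change was -1.78 (SE 0.08, adjusted p = 9.12e-13 by edgeR). It was -1.90 in ANS4 alone and -1.68 in BL6 alone.

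Rps18 of the 40S head, which carries a TOP run at its start, fell from 538 and 576 CPM in ANS4 and 599 and 530 in BL6 to 183 and 176 CPM and to 183 and 173.5 CPM in BMP. The BMP libraries lay close together (SD 4.91 CPM, n = 4), and the log2 fold change was -1.65 (SE 0.06). Rps25, a 40S protein used in initiation on some viral RNAs, had EGF/FGF levels of 408 to 487 CPM and BMP levels of 130 to 166 CPM, a log2 fold change of -1.58. Rpl36a and Rpl41, the latter the smallest ribosomal protein, gave -1.62 and -1.60. Rps19, the gene most often altered in Diamond-Blackfan anaemia, gave -1.56. For each gene named in this paragraph an exact permutation test over the 8 libraries, two-sided, gave p = 0.0286, the smallest possible with 4 against 4. Groups of libraries that do not overlap always give this p, and 71.1% of all genes tested had such groups, in either direction. The genes were named for their large falls, so this p is no further support for them.

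At the other end stood Rpl22 (chr4:152325742-152334071, plus strand), an RNA-binding 60S protein that mouse cells can lack. Its levels were 255.4 and 232.1 CPM in ANS4 and 231.4 and 234.5 in BL6 with EGF/FGF, and 204.5 and 194.5 CPM in ANS4 and 194.6 and 157.7 in BL6 with BMP. The groups did not overlap, and the log2 fold change of -0.34 (SE 0.07, adjusted p = 3.04e-04) was the smallest of the set. Rpl22l1, its paralog outside the rule, was at 39.9 to 48.1 CPM with EGF/FGF and 8.70 to 15.1 CPM with BMP, a log2 fold change of -1.84 (SE 0.12, adjusted p = 8.75e-11), beyond that of every member. Next after Rpl22 came Rpl34 (-0.61) and Rps14 (-0.77), the latter a protein of the 40S platform beside the decoding site.

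Some members were measured with less precision. Rpl29 had 30.2, 32.3, 18.7 and 14.8 CPM in EGF/FGF (ANS4, then BL6) and 9.05, 19.8, 17.0 and 8.65 CPM in BMP. These ranges overlap, and the SE of its log2 fold change of -0.80 was 0.29 (adjusted p = 0.0192 by edgeR). DESeq2 gave an adjusted p of 0.0715, and the call was also lost in BL6 alone (0.234) and without ANS4 EGF/FGF replicate 1 (0.0562) or 2 (0.0681), ANS4 BMP replicate 1 (0.0709) or BL6 BMP replicate 2 (0.0637). Rps29 and Rpl37 had SEs of 0.20 and 0.18, with log2 fold changes of -0.98 and -0.91. Rpl37 shares its Ensembl identifier with Rpl37rt, a separate row at 132 CPM in EGF/FGF and 69.2 CPM in BMP, so the division of reads between them is uncertain. Copies of Rpl14 and Rpl31 also took reads, with means of 123 CPM for Rpl14-ps1 and 25.5 CPM for Rpl31-ps12 in EGF/FGF.

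**Figure D2:**
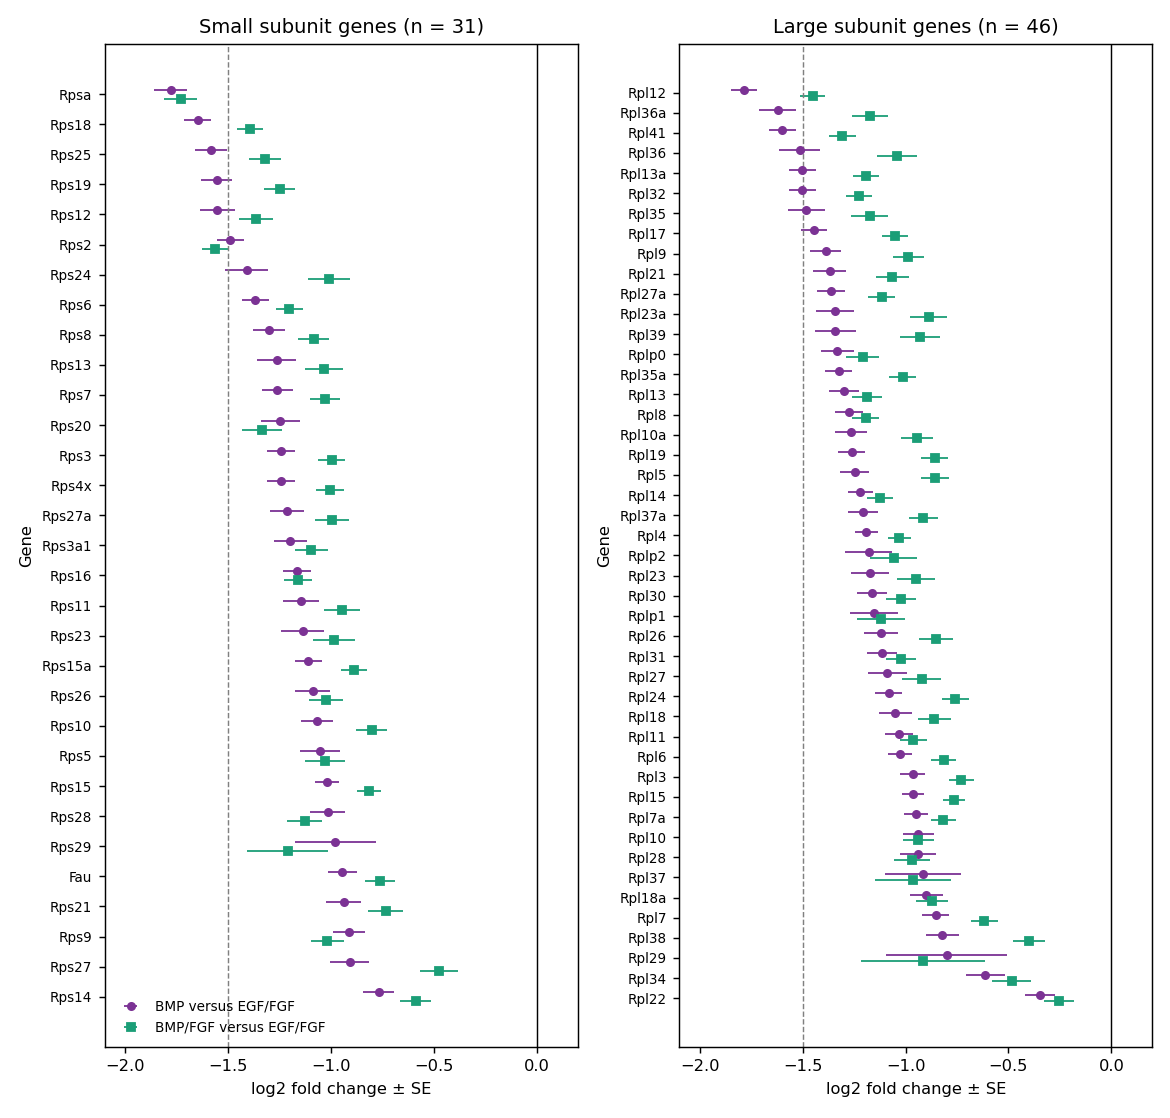
log2 fold change with SE of 77 of the 78 members, each against EGF/FGF, for BMP (circles) and BMP/FGF (squares), with small subunit genes on the left and large subunit genes on the right, ordered by the BMP value; the dashed line marks -1.5. All points lie below 0, from -1.79 (Rpl12, BMP) to -0.25 (Rpl22, BMP/FGF), and the bars of Rpl29, Rpl37 and Rps29 are widest.

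In p-qNSCs the fall was present in the same 78 members. BMP/FGF against EGF/FGF gave a median log2 fold change of -1.01 (quartiles -1.13 and -0.87), a level 0.496 times that of EGF/FGF, and 78 members called lower against 38% of all genes tested, with 40.9% called higher. These values share the EGF/FGF libraries with the BMP comparison. Libraries did not overlap for 77 members, again with Rpl29 as the exception, against 36.9% of all genes tested. Past -1.5 were Rpsa and Rps2, 2 of 78 or 2.56%, a smaller share than the 6.08% of all genes tested.

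Rpsa stood at 359 and 353 CPM in ANS4 and 383 and 378 in BL6 with BMP/FGF, a log2 fold change of -1.73 (SE 0.08, adjusted p = 1.32e-12). Rps2, at the mRNA entry of the small subunit (chr17:24718116-24721929, plus strand), had 955 and 1113 CPM in ANS4 and 991 and 1055 in BL6 with EGF/FGF. Its BMP/FGF levels were 339 and 329 CPM in ANS4 and 346 and 380 in BL6, and its BMP levels 353, 358, 367 and 388 CPM in the same order. The log2 fold change against EGF/FGF was -1.56 (SE 0.07) in BMP/FGF and -1.49 in BMP, and the difference between the quiescent conditions was -0.07 (adjusted p = 0.379).

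Rpl12 (-1.45), Rps18 (-1.40), Rps12 (-1.36) and Rps20 (-1.34) followed. The smallest falls were those of Rpl22 (-0.25), Rpl38 (-0.40), Rps27 (-0.48) and Rpl34 (-0.48). Rpl22 lost its call in BL6 alone, with a log2 fold change of -0.20 and an adjusted p of 0.067. Rpl29 was not called in BL6 alone either (-0.14, adjusted p = 0.68), nor without ANS4 BMP/FGF replicate 2 (-0.67, adjusted p = 0.0523). For all other members the call held in each line alone and in each fit that left out a library.

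**Figure D3:**
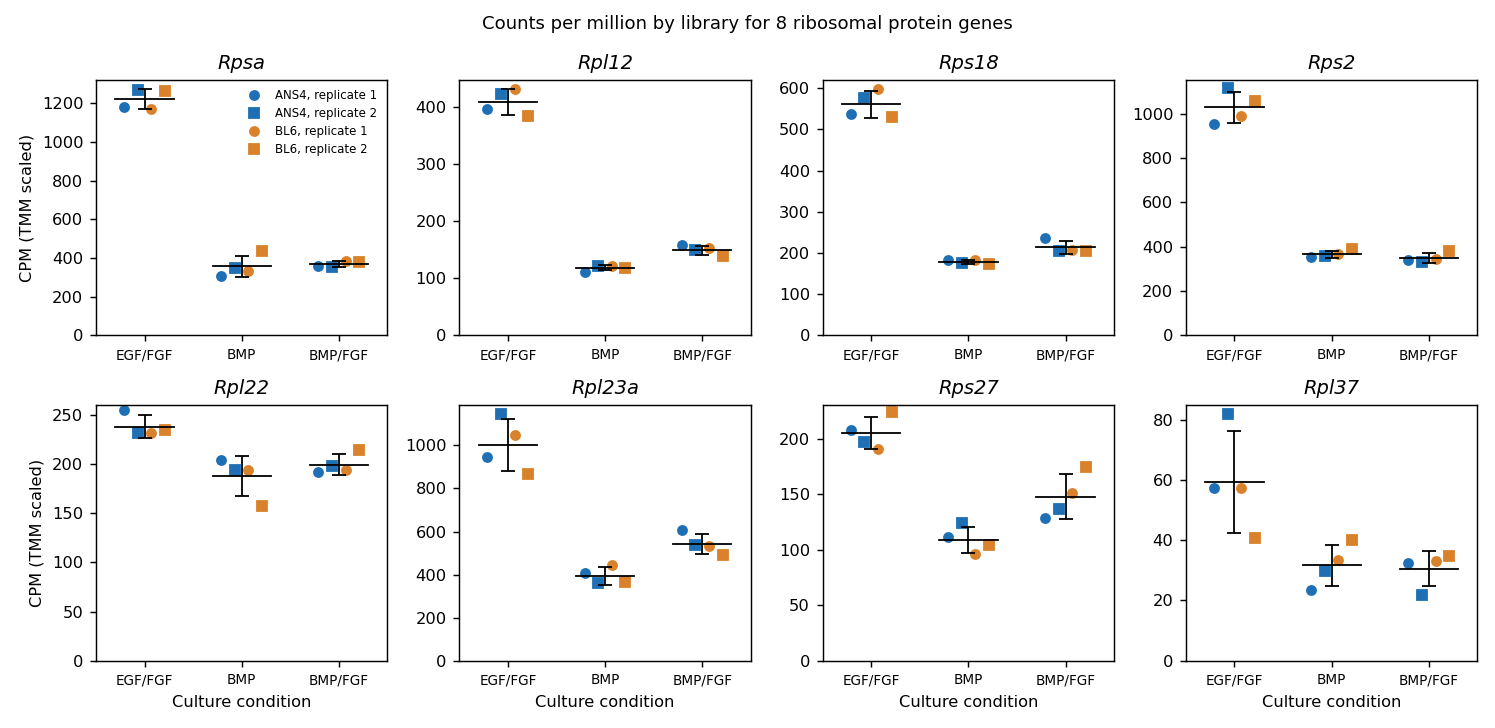
CPM (TMM scaled, axes from 0) in each library for 8 members, by condition, with colour for line and shape for replicate; lines and bars show mean and SD of 4 libraries. Rpsa and Rps2 have like levels in both quiescent conditions, Rpl23a and Rps27 are higher in BMP/FGF than in BMP, Rpl22 changes least, and the replicates of Rpl37 spread most.

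The direct comparison of p-qNSCs with d-qNSCs shows how the set differs between the quiescent states. With BMP/FGF 40 of the 78 members (51.3%) exceeded their BMP level, against 20.1% of all genes tested, and 0 were lower, against 21.3%. At an unadjusted p under 0.05 edgeR gave 49 higher and 0 lower. DESeq2 called 39 higher and 0 lower, and limma on the rlog values 38 and 0. The median log2 fold change was 0.21 (quartiles 0.09 and 0.29), about 1.15-fold, where the median of all genes tested was 0.00 to 2 decimals. Libraries did not overlap for 34 members, all higher in BMP/FGF, against 17.6% of all genes tested. The rise was small beside the fall from EGF/FGF, and 38 members did not pass the test.

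The members with the largest rises were Rpl36, Rpl23a, Rpl36a, Rps27, Rpl38 and Rpl39, at 0.47, 0.46, 0.45, 0.43, 0.42 and 0.41. Rpl23a, a protein at the tunnel exit where signal recognition particle docks (chr11:78180932-78183584, minus strand), had 405 and 361 CPM in ANS4 and 446 and 364 in BL6 with BMP. In BMP/FGF its levels were 606 and 539 CPM in ANS4 and 531 and 491 in BL6. The lowest BMP/FGF library was above the highest BMP library, with a log2 fold change of 0.46 (SE 0.09, adjusted p = 6.40e-04).

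Rpl36a had 109, 88.1, 102 and 77.5 CPM in BMP (ANS4, then BL6) and 129, 125, 127 and 133 CPM in BMP/FGF, the BL6 replicate 2 of BMP being the lowest. Rpl38, a 60S protein known for its part in translating Hox mRNAs in the mouse embryo, had 23.6, 28.9, 27.8 and 28.8 CPM in BMP. Its BMP/FGF values were 33.7, 34.5, 36.4 and 41.9 CPM, in the same order, and the groups did not overlap.

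Rps27 (chr3:90212522-90213651, minus strand), a zinc finger protein of the 40S, had 111 and 124 CPM in ANS4 and 95.8 and 105 in BL6 with BMP. Its BMP/FGF levels were 128 and 136 CPM in ANS4 and 151 and 174 in BL6. The difference was 0.17 in ANS4 alone (adjusted p = 0.0551) and 0.70 in BL6 alone. Rpl39 likewise was not called in ANS4 alone, with 0.19 and an adjusted p of 0.0906. Rps27l, a paralog of Rps27 outside the rule, rose by 0.65 (SE 0.11, adjusted p = 1.43e-04), from 15.6 to 28.4 CPM in BMP to 33.9 to 37.3 CPM in BMP/FGF.

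Members with a value below 0 were 8, none past the test: Rps29 (-0.23), Rpl29 (-0.11), Rps28 (-0.11), Rps9 (-0.10), Rps20 (-0.09), Rps2 (-0.07), Rpl37 (-0.05) and Rpl28 (-0.03). Their SEs ran from 0.06 for Rps2 to 0.31 for Rpl29. Of these 8, 5 were small subunit proteins.

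**Figure D4:**
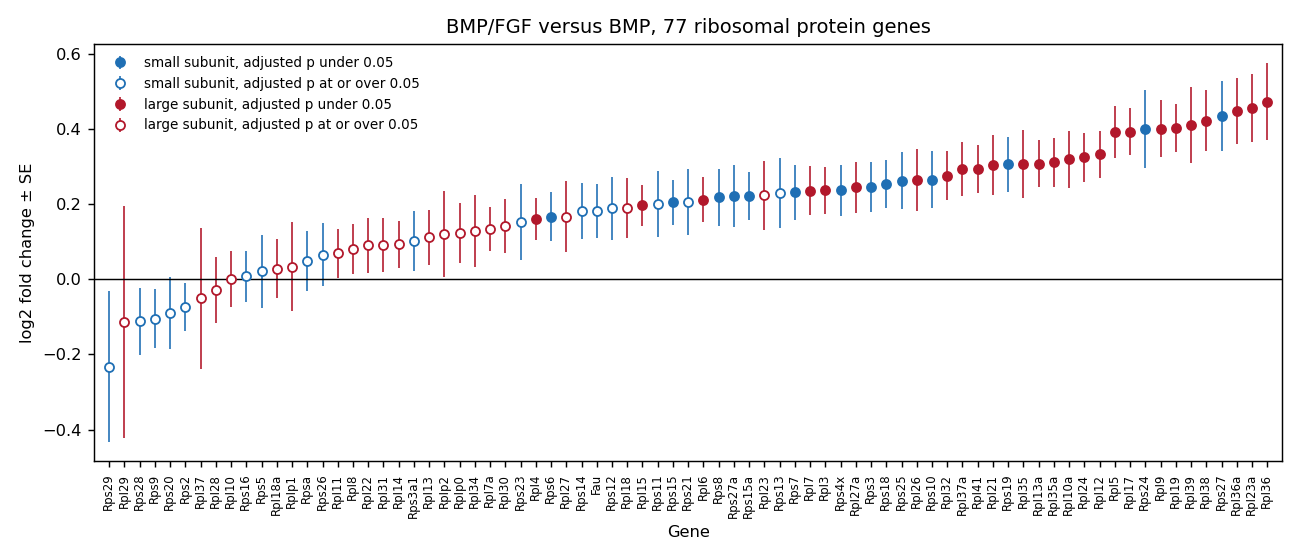
log2 fold change with SE of 77 of the 78 members in BMP/FGF against BMP, in rising order, with colour for subunit and filled points for an adjusted p under 0.05. The 40 filled points are all above 0, up to 0.47 for Rpl36, and the 8 points below 0 are open.

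By role, the subunits had like medians: the small subunit had medians of -1.18 in BMP and -1.03 in BMP/FGF, and the large subunit -1.19 and -0.96. Against BMP, 14 of 32 small subunit genes (median 0.19) and 26 of 46 large subunit genes (median 0.23) rose with BMP/FGF, where 20.1% of all genes tested were called higher. That share is the background of every count of rises from BMP to BMP/FGF in the role groups. For counts of falls from EGF/FGF the background was 38.8% of all genes tested in BMP and 38% in BMP/FGF. The role groups are parts of the set, in which 51.3% of members rose and all 78 fell. A count above these backgrounds therefore does not set a role group apart from the other members. The 3 stalk proteins Rplp0, Rplp1 and Rplp2, which contact the elongation factors, gave -1.33, -1.15 and -1.18 in BMP and -1.21, -1.12 and -1.06 in BMP/FGF. None of the 3 was called between the quiescent conditions by edgeR (0 at an unadjusted p under 0.05), DESeq2 or limma, with values of 0.12, 0.03 and 0.12. Rplp0 had 1198 to 1513 CPM with EGF/FGF, 477 to 593 with BMP and 548 to 619 with BMP/FGF.

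Rpl5 and Rpl11, which enter the ribosome with 5S rRNA and bind Mdm2 when they are free, differed in the last comparison. Rpl5 went from 348 to 455 CPM in BMP to 527 to 548 CPM in BMP/FGF, a rise of 0.39 (SE 0.07, adjusted p = 2.00e-04). Rpl11 went from 147 to 168 CPM to 153 to 177 CPM, with 0.07 (adjusted p = 0.43) and overlapping libraries. A test of the difference between the genes was not made. Rps27a and Fau, made as fusions to ubiquitin and a ubiquitin-like protein, gave -1.22 and -0.94 in BMP, and 0.22 (adjusted p = 0.0404) and 0.18 (adjusted p = 0.0507) in BMP/FGF against BMP.

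Of 10 names listed for the nascent chain exit, Rpl25 is not a further mouse gene, and the other 9 are in the table. These 9 were lower in both quiescent conditions (medians -1.26 and -0.89), and 7 of the 9 rose from BMP to BMP/FGF, with a median of 0.39. Those 7 were Rpl17 (0.39), Rpl19 (0.40), Rpl23a, Rpl26 (0.26), Rpl35 (0.31), Rpl38 and Rpl39, while Rpl22 (0.09) and Rpl31 (0.09) did not pass. A list named for the decoding head and mRNA exit of the 40S held 6 genes (Rps2, Rps3, Rps6, Rps14, Rps26 and Rps28). Not all of these proteins lie in those parts. The 6 genes had medians of -1.17 and -1.08. From BMP to BMP/FGF 2 of 6 rose, Rps3 at 0.25 and Rps6 at 0.17, a count too small to read against 20.1% of all genes tested. Rps6, the target of S6 kinase, had 827 to 998 CPM with EGF/FGF, 337 to 367 with BMP and 390 to 412 with BMP/FGF.

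The 18 members altered in Diamond-Blackfan anaemia were lower in both conditions (medians -1.10 and -1.01), and 10 of 18 rose from BMP to BMP/FGF (median 0.21), against 20.1% of all genes tested. The 4 X-linked members, Rps4x, Rpl10, Rpl36a and Rpl39, had medians of -1.29 and -0.97. From BMP to BMP/FGF 3 of 4 rose, all but Rpl10 (0.00, with SE 0.07), a count too small to read against the same 20.1%.

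Members with the C-led run at a listed start (14 genes) had a median log2 fold change of -1.09 in BMP, members whose listed starts lack it (44 genes) -1.23, and members without a window (20 genes) -1.16. In BMP/FGF the medians were -0.93, -1.01 and -1.04. The ranges overlapped widely, -1.65 to -0.82 with the run and -1.79 to -0.34 without it in BMP, so these letters at the listed start did not separate members that fell more from those that fell less. The split rests on the annotated base, and 80.9% of the members' windows hold at least 8 pyrimidines in a row within 50 bases of it. It therefore cannot divide mRNAs with a TOP run from mRNAs without one. Over the members, the fall in BMP had a Pearson correlation of -0.02 with transcript length and of -0.30 with mean log2 CPM (across 78 genes of the same libraries, described only).

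Per kilobase of median annotated transcript, the highest means over the 12 libraries were those of Rps24 (1211 CPM per kb), Rpl23a (1154), Rpl41 (877), Rps4x (819) and Rpl13a (727). The lowest were Rps15a (16.2 CPM per kb), Rpl29 (23.5), Rps20 (36.6), Rpl37 (48.6) and Rpl36 (100.1). For Rps15a and Rps20 the median transcript lengths of 5130 and 3706 bases in GENCODE are long for these proteins and lower the value per kb. In BMP the log2 fold changes of Rps24, Rpl23a and Rpl13a were -1.41, -1.34 and -1.503. Those of the low members Rpl29 (SE 0.29), Rpl37 and Rpl36 were -0.80, -0.91 and -1.52, so high and low members alike were lower. Rps15a, low per kb through its annotated length, gave -1.11.

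The lines were compared by a line by condition term, as the value in BL6 minus that in ANS4. For BMP against EGF/FGF 1 member passed with a positive difference, against 5.39% of all genes tested, and 0 with a negative one, against 3.63%. At an unadjusted p under 0.05 edgeR gave 10 positive and 2 negative, DESeq2 called 3 and 0 and limma 0 and 0. The member was Rpl37 (chr15:5116645-5119140, plus strand), with 57.3 and 81.9 CPM in ANS4 and 57.3 and 40.9 in BL6 with EGF/FGF, and 23.6 and 29.7 CPM and 33.3 and 40.03 CPM with BMP. Its fall was 1.39 in ANS4 alone and 0.44 in BL6 alone on the log2 scale, and the difference was 0.96 (SE 0.26, adjusted p = 0.0266). The ANS4 replicates with EGF/FGF lay further apart than the lines in BMP, and DESeq2 gave an adjusted p of 0.112.

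For BMP/FGF against BMP 3 members passed with a positive difference, against 6.67% of all genes tested, and 0 with a negative one, against 6.86%. Here edgeR gave 10 positive and 2 negative at an unadjusted p under 0.05, DESeq2 called 4 and 0 and limma 3 and 0. The members were Rps27 (0.53, adjusted p = 0.00948), Rps27a (0.40, adjusted p = 0.0309) and Rps19 (0.39, adjusted p = 0.0138). Rps19 had 167 and 158 CPM in ANS4 and 131 and 130 in BL6 with BMP, and 180 and 171 CPM and 175 and 195 CPM with BMP/FGF. Its rise was 0.11 in ANS4 alone and 0.51 in BL6 alone. Rps27a had 127 and 115 CPM in ANS4 and 118 and 98.4 in BL6 with BMP, and 120 and 125 CPM and 137 and 152 CPM with BMP/FGF, so that the ANS4 values overlapped. As shares, 1.28% and 3.85% of the members were called, below the shares of all genes tested. These counts depended on single libraries. Without BL6 BMP replicate 1 they were 10 positive and 4 negative for BMP against EGF/FGF and 13 and 3 for BMP/FGF against BMP, and without BL6 BMP/FGF replicate 2 the latter were 0 and 0. For BMP against EGF/FGF, 0 members were positive without ANS4 EGF/FGF replicate 2, ANS4 BMP replicate 1 or BL6 EGF/FGF replicate 2, 2 without ANS4 EGF/FGF replicate 1 and 5 without ANS4 BMP replicate 2. For BMP/FGF against BMP, 1 was positive without either ANS4 BMP/FGF replicate and 6 without ANS4 BMP replicate 1.

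Related genes give the scale of the change. Among paralogs and further components, 9 of 11 names are in the table and 5 were tested. All 5 were lower in both quiescent conditions (medians -1.61 and -1.27): Rack1 (-1.42 and -1.27), Rpl7l1 (-1.06 and -0.98), Rpl36al (-1.61 and -1.34), Rpl22l1 and Rps27l. Of all genes tested 38.8% were lower in BMP and 38% in BMP/FGF. Rpl3l, Rpl10l, Rpl39l and Rps4l, paralogs known from muscle or testis, had at most 3 counts in a library.

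The 78 mitochondrial ribosomal proteins, which serve another ribosome, were lower in BMP for 71 genes with a median of -0.57, against 38.8% of all genes tested. In BMP/FGF 61 were lower and 2 higher than in EGF/FGF (median -0.40), and 32 were higher and 0 lower than in BMP (median 0.17, with 39 and 0 at an unadjusted p by edgeR, 26 and 0 by DESeq2, 25 and 0 by limma). Of all genes tested 38% were lower and 40.9% higher in BMP/FGF than in EGF/FGF, and 20.1% were higher and 21.3% lower than in BMP. Mrpl12 had the largest fall in BMP, at -1.51. Of 17 further TOP mRNAs all were lower in both conditions (medians -0.85 and -0.67), against 38.8% of all genes tested in BMP and 38% in BMP/FGF. In BMP these TOP mRNAs ran from -1.59 for Eef1b2 to -0.19 for Eef2. Most of them, such as the Eef and Eif genes, Rack1 and Npm1, also stand in another list used here.

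Among 64 translation factors tested of 68 listed (matched by name, with eIF2 kinases, eIF4E-binding proteins and methyltransferases among them), 54 were lower and 6 higher in BMP (median -0.47), and 47 and 8 in BMP/FGF (median -0.36). Of all genes tested 38.8% were lower and 40.8% higher in BMP, and 38% and 40.9% in BMP/FGF. Eef1a2, the muscle and neuron form of elongation factor 1A, had the largest rise in BMP, 2.56, from 0.75 to 4.56 CPM on average. Between the quiescent conditions 19 were higher and 3 lower in BMP/FGF, against 20.1% and 21.3% of all genes tested.

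Ribosome biogenesis and RNA polymerase I genes had 56 of 60 lower and 1 higher in BMP (median -1.24) and 56 lower and 3 higher in BMP/FGF (median -1.19). Of all genes tested 38.8% were lower and 40.8% higher in BMP, and 38% and 40.9% in BMP/FGF. The largest falls were those of Gnl3 in BMP (-2.11) and Nop56 in BMP/FGF (-2.17), and Sbds, which readies the 60S subunit, rose by 0.57 and 0.63. Between BMP/FGF and BMP, 5 of these 60 genes were higher and 7 lower (20.1% and 21.3% of all genes tested), with a median of 0.01 beside 0.21 for the ribosomal proteins. A test of that difference was not made.

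Of 23 regulators of growth and TOP translation 12 were higher and 9 lower in BMP (median 0.17), and 8 and 8 in BMP/FGF (median -0.02). Between the quiescent conditions 2 were higher and 6 lower in BMP/FGF. With 40.8% higher and 38.8% lower among all genes tested in BMP, 40.9% and 38% in BMP/FGF, and 20.1% and 21.3% between the quiescent conditions, these counts are not a result about the list. The lowest value in BMP was that of the kinase gene Rps6ka1 (-1.86). Larp1 was lower in both quiescent conditions (-1.16 and -1.18). Myc was lower as well (-1.15 and -1.38), but its value in BMP differed between the lines, by 0.94 (BL6 minus ANS4, SE 0.12, adjusted p = 1.09e-04) against EGF/FGF and by -0.92 (adjusted p = 2.07e-04) for BMP/FGF against BMP. Mycn was higher (2.34 and 1.38), at 3.53 CPM in EGF/FGF and 18.0 in BMP on average.

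**Figure D5:**
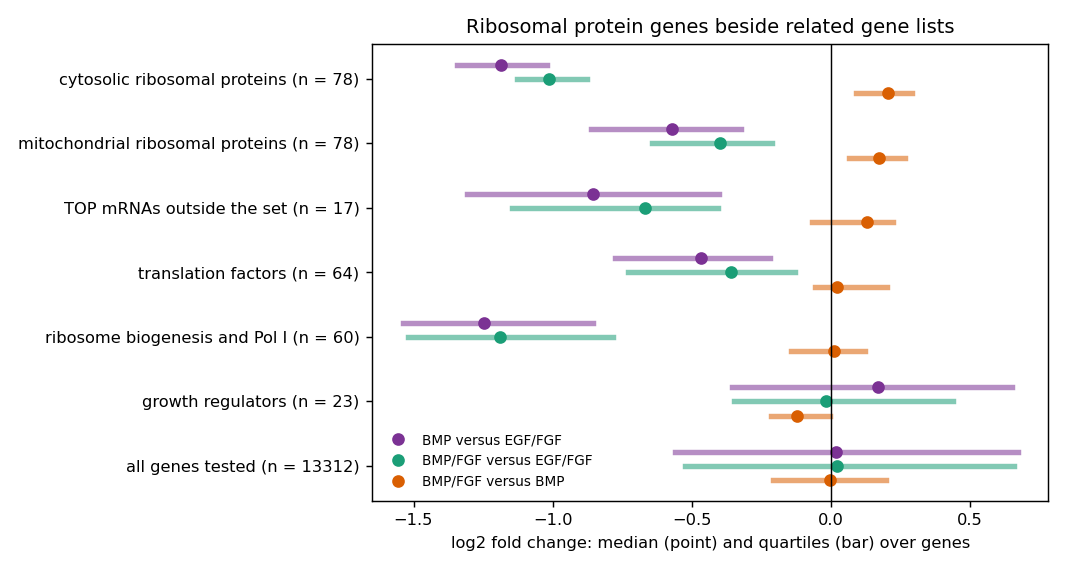
Median (points) and quartiles (bars) of the log2 fold change over the tested genes of the 5 related lists drawn, the ribosomal proteins and all genes, with one colour for each comparison. The cytosolic ribosomal proteins (median -1.19 in BMP) and the ribosome biogenesis genes (-1.24) lie furthest to the left of those drawn (the 5 tested paralogs, median -1.61, are not drawn), the mitochondrial ribosomal proteins (-0.57) and translation factors (-0.47) between them and all genes tested (0.02).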

How the data were processed

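The authors trimmed reads with Trim Galore 0.5.0, quantified them with kallisto 0.44.0 on mm10 transcripts and summed them to genes with tximport 1.8.0 (the annotation release is not given in the sources used here). They deposited estimated counts per gene as whole numbers, and a second table that the authors made with DESeq2 holds log2 (rlog) values. Short genes with near-identical copies depend on how kallisto divided shared reads. Samples were grouped by condition and line from their labels.

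Counts were filtered with filterByExpr (13312 genes kept, 4053 not), scaled by TMM and fitted with edgeR 4.0.16 (glmQLFit, condition and line, 12 libraries). Tests were two-sided quasi-likelihood tests with Benjamini-Hochberg adjustment over all tested genes, at 0.05. Line differences used a line by condition term. Every adjusted p is edgeR's unless another tool is named. DESeq2 1.42.0, limma-trend 3.58.1 on the log2 values, other scalings, no filter, no line term, each line alone, a replicate block and each library left out were alternatives. Single-gene permutation tests on log2(CPM + 0.1) were exact. Steps were tested on simulated data with R 4.3.3.

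Gene positions and transcript lengths came from GENCODE on GRCm38, and all 78 members were found there; start windows came from RefSeq, GRCm38.p6. The members and lists were chosen with earlier results of these data known. Named are, in each comparison, the 6 largest rises and 6 largest falls at an adjusted p under 0.05 with the same direction in all 4 pairs of equally numbered libraries of a line (the number is arbitrary here, and the groups of libraries did not overlap for any gene so named), members past 1.5, members with a line difference at an adjusted p under 0.05, the 5 highest and 5 lowest per kb, role groups, and the 5 members whose profile was least like the median of the others (Rpl29, Rpl22, Rpl37, Rpl38 and Rps29). Others at the ends of a ranking or below 0 were named after their values were seen. Replicate numbers name the 2 samples of a line and condition. One count equals 0.0514 to 0.0553 CPM before TMM scaling. Own values of 1 member and of 1 further listed gene are not reported here.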

Additional observations from a re-analysis of the deposited data

Results flagged for a closer look

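A library stood apart from the other 3 of its condition (Dixon's test) in 10 of 234 tests, and chance flags about 1 in 20 groups. In EGF/FGF, ANS4 replicate 2 was high for Rpl13 (604 CPM, others 466 to 485), Rpl34 (112, others 87.9 to 91.4) and Rps9 (461, others 347 to 365), and ANS4 replicate 1 was high for Rpl22 (255, others 231 to 234). ANS4 EGF/FGF replicate 2 also held the highest summed share, 3.97%. In BMP, BL6 replicate 1 was low for Rpl6 (296 CPM, others 328 to 334) and ANS4 replicate 1 was low for Rps28 (35.7, others 43.3 to 44.2). In BMP/FGF, BL6 replicate 2 was high for Rpl5 (548 CPM, others 527 to 530) and Rpl7 (546, others 482 to 493), and ANS4 replicate 1 was high for Rps18 (236, others 204 to 208) and Rps24 (588, others 470 to 487).

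The lines differed by the line by condition term of edgeR, in log2 units of BL6 minus ANS4, for Rpl37 in BMP against EGF/FGF (0.96, adjusted p = 0.0266) and, in BMP/FGF against BMP, for Rps19 (0.39, adjusted p = 0.0138), Rps27 (0.53, adjusted p = 0.00948) and Rps27a (0.40, adjusted p = 0.0309).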

How the results depend on the processing

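The falls in both quiescent conditions were stable: over all alternatives run, 77 or 78 members were called lower with BMP and 76 to 78 with BMP/FGF, with medians of -1.21 to -1.15 and -1.08 to -0.96, and members called higher in BMP/FGF than in BMP were 30 (ANS4 alone) to 42. In ANS4 alone the median moved by more than the replicate SD, to -1.08 for BMP/FGF against EGF/FGF and to 0.14 for BMP/FGF against BMP. No scaling moved the median of all genes by 0.1. The replicate numbers did not pair the libraries (correlations of -0.07 to 0.05). With the replicate block 78, 78 and 36 members were called in the 3 comparisons, and 1 member turned negative in the line comparison of BMP/FGF against BMP; other counts stayed within 1.5 times. Line differences for BMP against EGF/FGF were positive for 5 members with library size only, 3 by DESeq2 and 0 by limma or without the filter. Leaving out a library gave 0 to 10 positive and 0 to 4 negative members. For BMP/FGF against BMP, library size only gave 2 negative members, and leaving out a library gave 0 to 13 positive and 0 to 3 negative. The causes were not tested. Rpl37 was called in 13 of 20 alternatives (adjusted p up to 0.152), Rps27a in 12 (up to 0.145), and Rps27 and Rps19 in 18 each. The largest SEs were those of Rpl29, Rps29 and Rpl37, and the error of dividing reads between copies is not part of any SE.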
